A study of Arabidopsis thaliana with 6 samples.

Results

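The genes described here are those whose expression value in roots of the Arabidopsis thaliana mutant hb13 was at least 2 times the wild-type value. They were chosen from the authors' deposited table, which gives 1 value for the wild type and 1 for the mutant, by dividing the hb13 value by the Col value. Of its 708 entries, 394 (55.6%) were higher in the mutant and 88 (12.4%) reached a ratio of 2. Of these 88, 13 loci and 1 organelle entry were set aside, which left 74 genes, or 10.5% of the table. All 74 are nuclear protein-coding genes in the RefSeq annotation. Because the ratio chose them, their ratios, values and q-values are given as a description, with no test.

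RNA came from roots of 5-day seedlings, cut about 0.5 cm from the tip, and was read in 3 libraries of the wild type and 3 of hb13. Both genotypes are in the Col-0 ecotype, the standard laboratory accession, on standard medium. HB13 (AT1G69780) belongs to class I of the HD-ZIP proteins, transcription factors in which a DNA-binding homeodomain is joined to a leucine zipper. The mutant allele and the number of independent mutant lines are not given in the sources used here. The values per library and the read depth were not analysed here, so no spread between replicates can be set beside a ratio. HB13 is not an entry of the table, nor is any of the other HD-ZIP class I genes, 17 in all, so the mutant label could not be checked against its transcript. None of the 6 markers of green shoot tissue is an entry either. The same holds for the markers of xylem, phloem, stele, lateral root primordia and non-hair epidermis that were matched to a locus. For the root cap, 3 of 4 marker names were matched to a locus, and these 3 are not entries. The remaining name, BRN2, is NAC070 (AT4G10350), an entry that was lower, at 43.9 and 28.4 in the authors' deposited table. The table lists only entries that passed the authors' threshold, so absence from it does not show that a gene was off or unchanged.

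HD-ZIP factors bind DNA as pairs, at short sites whose arms mirror each other. Growth of the young root depends on hormones that act on each other: auxin, gibberellin, cytokinin, ethylene and abscisic acid each have genes for synthesis, breakdown and response, and their balance sets how fast cells divide and elongate. Elongation itself needs wall proteins such as expansins, which loosen the wall, and xyloglucan endotransglucosylases (XTH), which cut and rejoin its xyloglucan chains. The doubled genes are taken in that order, after a look at the DNA in front of them.

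Promoters are shown first, because members of the mutated gene's family act through sites in DNA. The 250 bases before the annotated start of each gene were read from the RefSeq assembly TAIR10.1 and searched on both strands for CAATNATTG, the mirrored site of HD-ZIP factors. It was found in 4 of the 74 promoters (5.41%), against 252 of 27443 promoters of all protein-coding genes (0.918%). The share was 0.987% of the 304 other higher genes and 1.31% of the 306 lower genes. Of these 4, 3 are shown, those of the TCP-interactor gene TIE2 (AT2G20080), the RING finger gene RHA2B (AT2G01150) and the kinase gene AT2G19410. They are printed 5′ to 3′ on the gene's strand, ending at the base before the start, with the site in capitals. They lie at chr2:8665027-8665276 (minus strand), chr2:100234-100483 (plus strand) and chr2:8409082-8409331 (minus strand) in TAIR10.1, and no other annotated gene overlaps them.
TIE2: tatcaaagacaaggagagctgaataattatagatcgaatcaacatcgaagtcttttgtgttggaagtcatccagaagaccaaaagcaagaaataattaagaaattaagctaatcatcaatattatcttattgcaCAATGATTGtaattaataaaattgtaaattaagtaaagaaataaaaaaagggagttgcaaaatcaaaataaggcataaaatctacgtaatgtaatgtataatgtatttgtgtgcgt
RHA2B: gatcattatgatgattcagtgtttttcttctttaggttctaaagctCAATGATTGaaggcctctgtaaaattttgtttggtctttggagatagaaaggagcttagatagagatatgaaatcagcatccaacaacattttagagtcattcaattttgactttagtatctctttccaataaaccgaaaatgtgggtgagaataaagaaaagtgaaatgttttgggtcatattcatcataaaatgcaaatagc
AT2G19410: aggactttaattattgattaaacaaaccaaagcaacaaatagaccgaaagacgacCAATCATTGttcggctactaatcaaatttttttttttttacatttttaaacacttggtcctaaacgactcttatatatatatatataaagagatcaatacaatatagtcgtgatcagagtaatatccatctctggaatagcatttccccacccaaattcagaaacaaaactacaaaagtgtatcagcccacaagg
The site starts 116 bases before the start of TIE2, 204 before RHA2B and 195 before AT2G19410.

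All 4 sites have C or G at the centre, CAATCATTG or its reverse complement CAATGATTG. In binding tests with purified proteins class I factors, to which HB13 belongs, are known to prefer A or T there and class II factors C or G. The form with C or G was in 73 of all 27443 promoters (0.266%), and in 0.329% of the other higher and 0.327% of the lower genes. The form with A or T, CAATTATTG or CAATAATTG, was in 0 of the 74 promoters, against 179 of all promoters (0.652%). This split by centre base was made after the matches were seen. The shorter core AATNATT, which lies inside the mirrored site and also occurs alone, was in 32 of the 74 (43.2%) and in 30.5% of all promoters, 40.8% of the other higher genes and 35.3% of the lower genes.

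**Figure D1:**
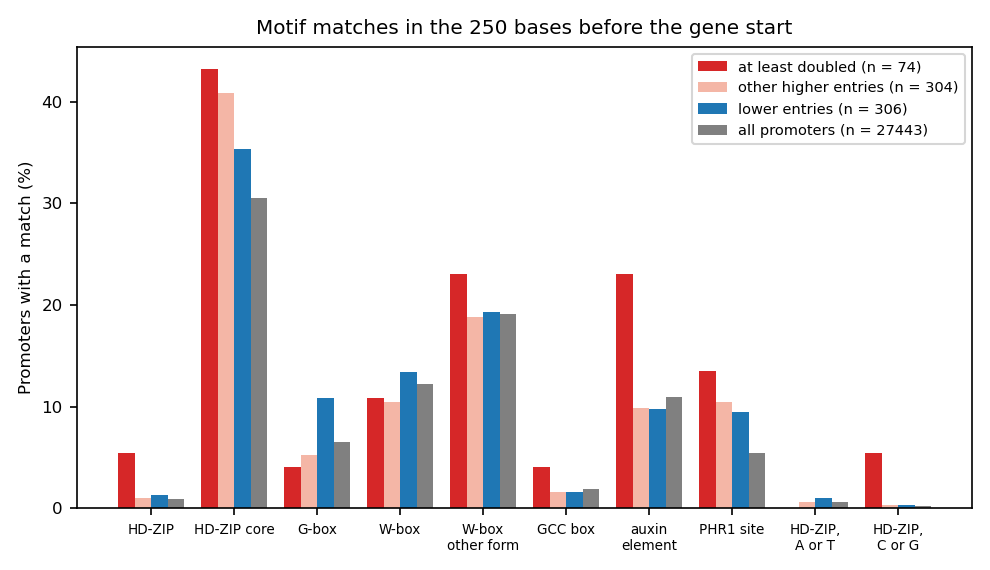
Share of promoters (vertical axis, %) with at least 1 match to each motif (horizontal axis) in the 250 bases before the gene start, for the doubled genes, the other higher entries, the lower entries and all protein-coding genes. The doubled genes have the highest bar for the HD-ZIP site and its core, the HD-ZIP form with C or G at the centre, the auxin element, the PHR1 site, the GCC box and the other form of the W-box, and the lowest for the G-box and the HD-ZIP form with A or T.

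The other motifs searched were CACGTG, the G-box of bHLH and bZIP factors, TTGACC and TTGACT, the forms of the W-box of WRKY factors, GCCGCC, the box of ethylene response factors, TGTCTC, the element of auxin response factors, and GNATATNC, the site of the phosphate starvation factor PHR1. TGTCTC was in 17 of the 74 promoters (23.0%), against 10.9% of all promoters, 9.87% of the other higher genes and 9.80% of the lower genes. GNATATNC was in 13.5% against 5.46% of all promoters, and in 10.5% of the other higher genes. GCCGCC was in 4.05% against 1.87% of all promoters. CACGTG was in 4.05% of the doubled genes' promoters, below the 6.49% of all promoters, and in 10.8% of the lower genes' promoters. TTGACC was in 10.8% against 12.2% and TTGACT in 23.0% against 19.1%. A match is a stretch of letters and not a measured binding site.

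The promoter of IAA19 (AT3G15540), at chr3:5263751-5264000 on the plus strand of TAIR10.1, held the most TGTCTC matches of the 74, with 3, shown in capitals.
IAA19: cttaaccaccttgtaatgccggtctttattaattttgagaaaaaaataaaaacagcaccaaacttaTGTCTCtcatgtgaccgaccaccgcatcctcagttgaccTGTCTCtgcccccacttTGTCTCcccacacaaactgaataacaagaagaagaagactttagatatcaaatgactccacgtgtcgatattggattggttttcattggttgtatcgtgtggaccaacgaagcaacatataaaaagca
Of the other doubled genes related to auxin, SHY2 and SAUR69 had no match. The element was also in the promoters of the hormone enzyme genes GA2OX8, ACS5 and CKX5 and of RSL1 and LBD14.

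The doubled genes spanned a wide range of values. The 74 wild-type values in the authors' deposited table ran from 0.472 to 166 with a median of 3.40, and the mutant values from 1.43 to 411 with a median of 8.11. Of the 74, 44 (59.5%) had a wild-type value under 5, against 14.1% of the 320 other entries that were higher. The wild-type value enters the ratio that chose the 74, so this difference is not independent of the choice and was not tested. The ratio was 4 or more in 8 genes, from 3 to 4 in 10, from 2.5 to 3 in 12 and from 2 to 2.5 in 44. The smallest listed q-value, 0.00246, was held by 52 of the 74 (70.3%) in the authors' deposited table, and the largest among the 74 was 0.0422. That smallest value was shared by 342 of all 708 entries (48.3%) and by 130 of the 320 other higher entries (40.6%). The scale of the values is not named, so no gene is said to be more expressed than another. The 10 highest hb13 values were used to choose genes whose values are given in full.

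**Figure D2:**
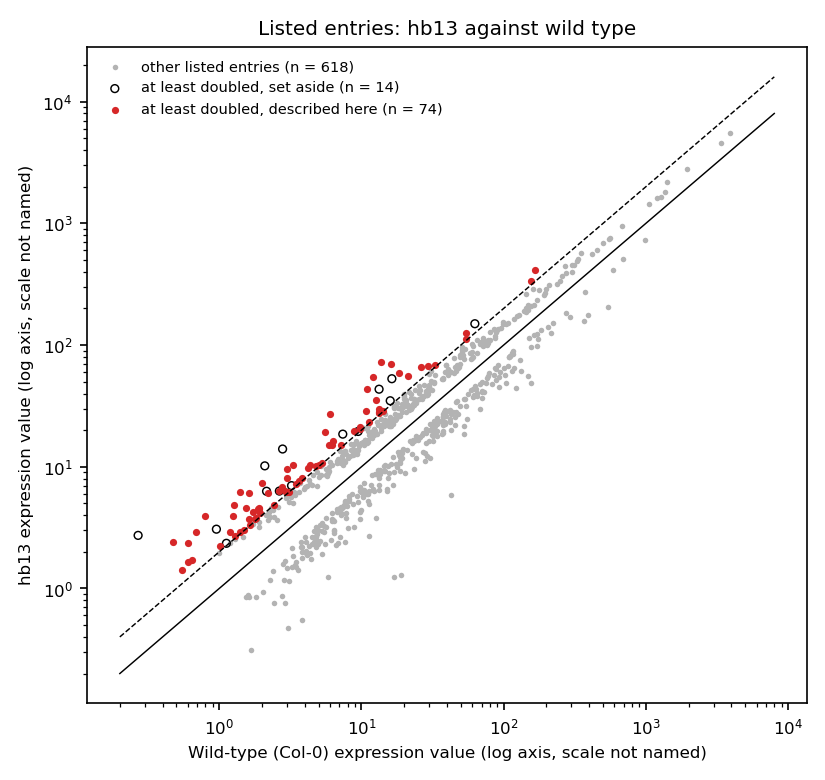
hb13 value against wild-type value (both log axes) for the entries of the authors' deposited table with a value above 0 in hb13. The solid line marks equal values and the dashed line a ratio of 2; the 74 doubled genes lie on or above the dashed line, most of them at wild-type values under 20.

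All 3 doubled enzymes of gibberellin metabolism had the smallest q-value, and they act at different steps. GA20OX2 (AT5G51810) and GA3OX2 (AT1G80340) catalyse late steps of the synthesis of active gibberellins, and GA2OX8 (AT4G21200) inactivates gibberellin precursors. GA2OX8 stood at 0.796 in wild-type roots and 3.92 in hb13 roots in the authors' deposited table, a ratio of 4.93 (q = 0.00246). GA3OX2 had 1.98 and 7.30, a ratio of 3.68 (q = 0.00246), in the authors' deposited table. For GA20OX2 the authors' deposited table gave 2.99 and 6.20, a ratio of 2.07 (q = 0.00246). Genes of both synthesis and breakdown were thus higher in the mutant. Of 37 gibberellin genes on a list of synthesis, breakdown, receptor, repressor and GASA response genes, 5 (13.5%) were listed as higher and 0 as lower, against 1.38% and 1.11% of all annotated protein-coding genes. Besides the 3 doubled genes these were GA3OX1, at 9.65 and 14.9 in the authors' deposited table, and the growth repressor RGL2, at 2.19 and 3.66. This list and the others below were written with earlier results of these data known. The share of all annotated genes is not limited to genes expressed in roots, and no difference from it was tested.

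Enzymes of 3 other hormones were also doubled. NCED9 (AT1G78390) cleaves a carotenoid in the rate-limiting step of abscisic acid synthesis. Its values were 0.472 in Col and 2.39 in hb13, a ratio of 5.07 (q = 0.00246), in the authors' deposited table. Its relative NCED3 was higher at a smaller ratio, 1.75, from 3.22 to 5.64 in the authors' deposited table. ACS5 (AT5G65800), an ACC synthase of ethylene synthesis, went from 13.3 to 29.8, a ratio of 2.24 (q = 0.00246), in the authors' deposited table. CKX5 (AT1G75450), which degrades cytokinin, went from 1.90 to 4.47, a ratio of 2.35 (q = 0.00246), in the authors' deposited table. CKX5 overlaps UBC16 (AT1G75440) on the opposite strand, which was listed too, at a ratio of 1.90, and how reads of overlapping genes were assigned is not stated.

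The abscisic acid and ethylene lists had entries in both directions and the cytokinin list in 1. Of all annotated protein-coding genes, 1.38% were listed as higher and 1.11% as lower. Of 36 abscisic acid genes, 2 (5.56%) were higher and 1 (2.78%) lower. The lower gene was the stress-response gene LTI78 (RD29A), at a ratio of 0.741 in the authors' deposited table. Of 25 cytokinin metabolism genes, 2 (8%) were higher and 0 lower. Besides CKX5 this was LOG7, an activating enzyme, at a ratio of 1.78 in the authors' deposited table. Of 30 ethylene genes, 2 (6.67%) were higher, both ACC synthases, with ACS2 at a ratio of 1.67. The 3 (10%) that were lower were the receptor genes ETR2 and ERS2 and the F-box gene EBF2. Their ratios were 0.455, 0.525 and 0.546 in the authors' deposited table. The ACC synthase genes and receptor genes that were entries thus went in opposite directions, but 25 of the 30 ethylene genes were not entries.

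Among the response genes, SAUR69 (AT5G10990), of a family of small proteins induced by auxin, had the largest ratio. The authors' deposited table gave SAUR69 5.51 in the wild type and 19.2 in hb13, a ratio of 3.49 (q = 0.00246). SHY2 (IAA3, AT1G04240), a repressor of auxin response known to restrain growth of the root meristem, had 4.24 and 9.74, a ratio of 2.30 (q = 0.00246), in the authors' deposited table. IAA19, a repressor of the same Aux/IAA family, had 9.74 and 21.2, a ratio of 2.17 (q = 0.00246), in the authors' deposited table. SHY2 overlaps AT1G04230 on the opposite strand. The proteins of SHY2 and IAA19 were identical over 48.7% of the shorter. EIL2 (AT5G21120), a relative of the ethylene factor EIN3, had 3.67 and 7.64, a ratio of 2.08 (q = 0.00246), in the authors' deposited table.

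Auxin genes beyond these rose by less. Of 68 auxin synthesis, transport and early response genes, 9 (13.2%) were listed as higher and 1 as lower, against the 1.38% and 1.11% of all annotated protein-coding genes. The 7 higher genes under a ratio of 2 were IAA11, IAA12, ARF19 (listed under its older name IAA22), GH3.17, GH3.1, YUC3 and AUX1, at ratios from 1.31 to 1.88 in the authors' deposited table. They include repressors (IAA11, IAA12), an activator of response (ARF19), enzymes that conjugate auxin (GH3.17, GH3.1), an enzyme of its synthesis (YUC3) and a carrier that brings it into cells (AUX1). The gene that was lower was LAX2, another uptake carrier, at 4.51 and 2.31 in the authors' deposited table.

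The TIE genes, so named by a RefSeq synonym, encode small proteins that bind TCP transcription factors and recruit a co-repressor through an EAR motif, which is known from leaves to restrain TCP activity. Of the 4 genes named TIE in the annotation, 3 were doubled and TIE3 (AT1G29010) was not an entry. TIE1 had 10.97 in the wild type and 43.3 in hb13, a ratio of 3.95 (q = 0.00246), in the authors' deposited table. TIE2 had 18.4 and 59.0, a ratio of 3.21 (q = 0.00246), in the authors' deposited table. TIE4 (AT2G34010) had 1.25 and 3.97, a ratio of 3.166 (q = 0.00246), in the authors' deposited table. The proteins of TIE1 and TIE2 are the closest pair of the 74, with 72.5% of the shorter protein identical in a global alignment. Among the TIE proteins the closest to TIE4 is TIE3, with 45.7% identity over the shorter protein, and both are further from TIE1 (30.6% each over the shorter protein). None of the 22 TCP genes found by name was an entry. The family was singled out after its values were seen.

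**Figure D3:**
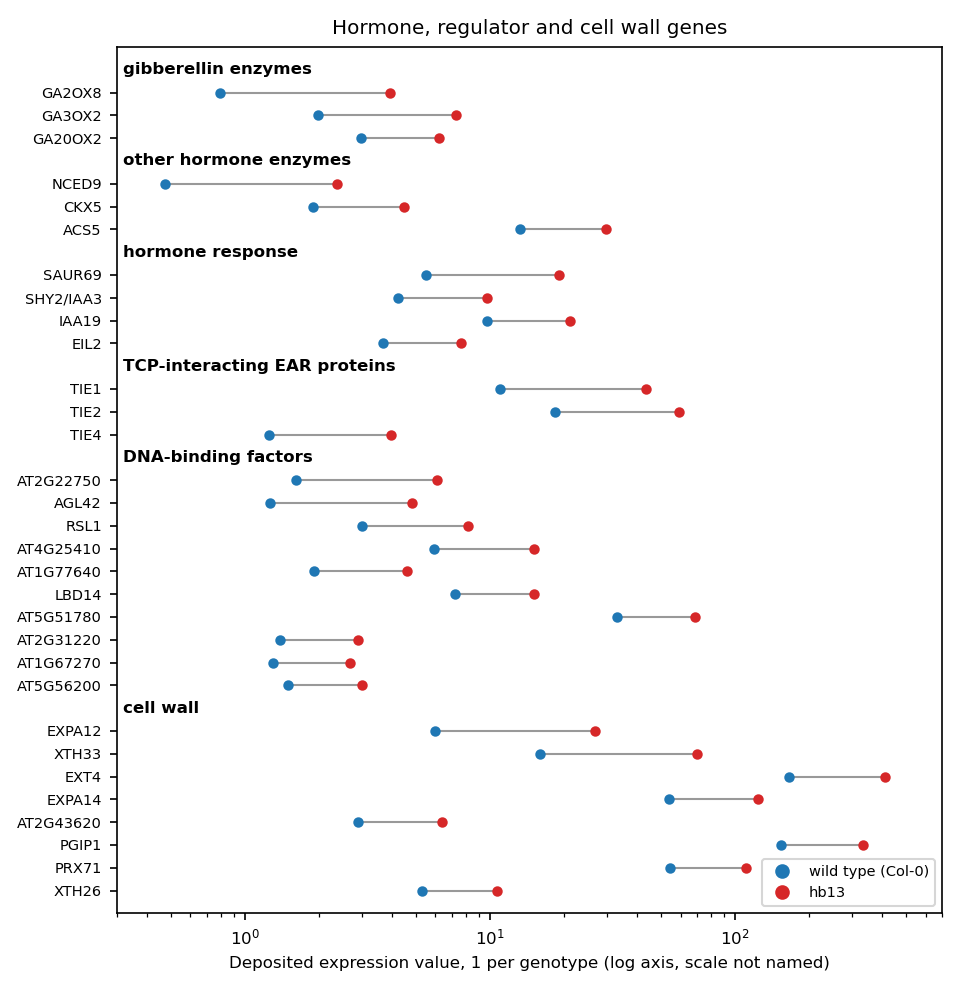
Deposited expression value (horizontal log axis) in the wild type (blue) and hb13 (red) for the doubled genes of hormone metabolism and response, the TIE genes, the DNA-binding factors and the cell wall genes, 1 value per genotype. Every red point lies to the right of its blue point because the genes were chosen so; the widest gaps are those of NCED9, GA2OX8, EXPA12 and XTH33.

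Of the doubled genes, 10 are annotated as DNA-binding or zinc finger factors. Of these, 5 are basic helix-loop-helix (bHLH) genes, a family that binds DNA in pairs. RSL1 (AT5G37800), which acts with RHD6 to start root hairs, had 3.01 and 8.16, a ratio of 2.71 (q = 0.00246), in the authors' deposited table. AT2G22750 had 1.61 and 6.12, a ratio of 3.79 (q = 0.00246), in the authors' deposited table. AT4G25410 had 5.90 and 15.2 and AT5G51780 had 32.9 and 68.6 in the authors' deposited table, and their proteins were identical over 43.1% of the shorter. The last, AT2G31220, had 1.40 and 2.89 in the authors' deposited table (q = 0.00645). Of 136 genes with a bHLH product name, 9 (6.62%) were listed as higher and 2 as lower. The shares of all annotated protein-coding genes were 1.38% and 1.11%. The set was chosen after the values were seen and lacks RSL1, RHD6 and RSL4, all listed as higher. Of 22 genes with a bHLH symbol, 0 were higher and 1, bHLH39, was lower at a ratio of 0.503 in the authors' deposited table.

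The bHLH gene next to AT4G25410, AT4G25400, was listed as well, at a ratio of 1.91 in the authors' deposited table. Outside this family, AGL42 (AT5G62165), a MADS-box gene, had 1.27 and 4.82, a ratio of 3.79 (q = 0.00246), in the authors' deposited table. LBD14 (AT2G31310), of the family of LOB-domain factors, had 7.18 and 15.1, a ratio of 2.11 (q = 0.00246), in the authors' deposited table. The last 3, AT1G77640, AT5G56200 and AT1G67270, had ratios from 2.0 to 2.39 and q-values from 0.0127 to 0.0300 in the authors' deposited table.

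RSL1 was part of a small set of root hair genes. Of 21 genes of root hair growth, 4 (19.0%) were listed as higher and 0 as lower, against 1.38% and 1.11% of all annotated protein-coding genes. RHD6, the partner of RSL1, had 23.4 and 36.0, a ratio of 1.54, in the authors' deposited table. RSL4, a bHLH factor that drives hair elongation, had 68.7 and 101.5, a ratio of 1.48, in the authors' deposited table. The wall protein gene PRP3 had 1191 and 1609, a ratio of 1.35, in the authors' deposited table. A calcium-binding protein gene named root hair specific 1 (RHS1, AT1G05990) was doubled, from 13.2 to 28.3 in the authors' deposited table, a ratio of 2.14 (q = 0.00246). Of 18 genes with that kind of name, a set chosen after the values were seen, it was the 1 listed as higher and the other 17 were not entries. Of the 5 markers of root hair cells 2, RHD6 and RSL4, were entries and both were higher. Of the other cell type markers, 1 of 7 endodermis genes (CASP4) was higher, at a ratio of 1.45 in the authors' deposited table. Lower were 1 of 4 quiescent centre genes (AIL6, also PLT3), at 0.627, and the root cap gene BRN2 (NAC070), at 0.648. In unsorted root tissue, more hair cells and more RNA per hair cell cannot be told apart.

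Cell wall genes numbered 8 of the 74, with ratios from 2.01 to 4.50. EXT4 (AT1G76930), an extensin, which is a structural wall glycoprotein, had 166 in the wild type and 411 in hb13 in the authors' deposited table, a ratio of 2.47 (q = 0.00246). PGIP1 (AT5G06860), an inhibitor of pectin-degrading enzymes of fungi, had 155 and 335, a ratio of 2.16 (q = 0.00246), in the authors' deposited table, and overlaps AT5G06865 on the opposite strand. Peroxidase 71 (PRX71, AT5G64120), of the secreted class III family, had 54.4 and 111, a ratio of 2.05 (q = 0.00246), in the authors' deposited table. The expansin EXPA14 (AT5G56320) was listed with 54.0 and 125, a ratio of 2.31 (q = 0.00246), in the authors' deposited table. A chitinase family gene, AT2G43620, was listed at 2.91 and 6.36 in the authors' deposited table (q = 0.00462).

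The wall-loosening genes spanned a wider range of ratios. EXPA12 (AT3G15370), an expansin, had 5.997 and 27.0, a ratio of 4.50 (q = 0.00246), in the authors' deposited table. XTH33 (AT1G10550) had 16.0 and 70.1, a ratio of 4.38 (q = 0.00246), in the authors' deposited table. XTH26 (AT4G28850), the gene directly beside TIE1 on the same strand, had 5.30 and 10.7, a ratio of 2.01 (q = 0.00246), in the authors' deposited table. The proteins of EXPA12 and EXPA14 were identical over 45.0% of the shorter. Of 68 expansin and XTH genes, 10 (14.7%) were listed as higher and 2, EXPA4 and XTH9, as lower, against 1.38% and 1.11% of all annotated protein-coding genes. Besides the 4 doubled genes, 6 were higher, and these were XTH5, XTH12, XTH15, XTH17, XTH18 and XTH19, at ratios from 1.32 to 1.53 in the authors' deposited table.

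Other extensin genes were also listed. Of the 7 genes with an EXT symbol, a set chosen after the values were seen, 6 (85.7%) were listed as higher and 0 as lower, against 1.38% and 1.11% of all annotated protein-coding genes. The 5 besides EXT4 had wild-type values from 333 to 1370 and ratios from 1.32 to 1.54 in the authors' deposited table. Extensin genes are built of similar repeats, and how reads shared between copies were counted is not stated.

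**Figure D4:**
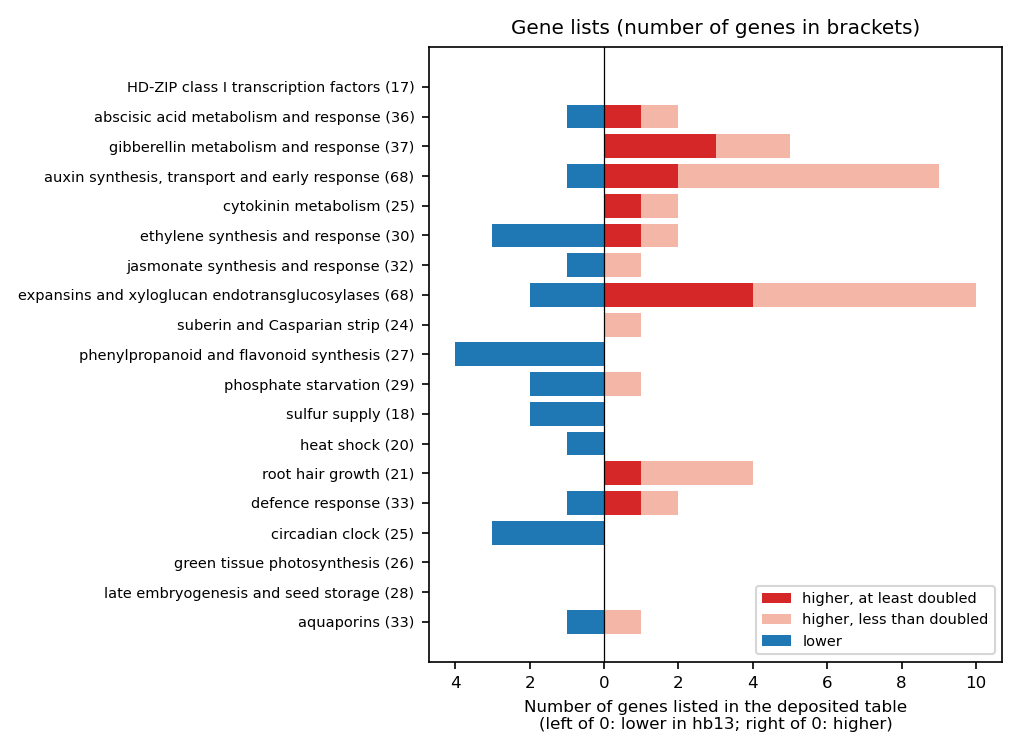
Number of genes of each list that were entries of the authors' deposited table (horizontal axis), to the right where higher in hb13 and to the left where lower, with the genes at least doubled in dark red. The gibberellin list (5 higher, 0 lower), the auxin list (9 and 1) and the expansin and XTH list (10 and 2) extend to the right, and the flavonoid (0 and 4) and clock lists (0 and 3) to the left.

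Signalling genes made up 12 of the 74, with ratios from 2.0 to 2.98. AT1G67900, of the NPH3 family, which is known from phototropism, had 1.54 and 4.60, a ratio of 2.98 (q = 0.00246), in the authors' deposited table. FRK1 (AT2G19190), a receptor-like kinase gene induced by bacterial flagellin, had 0.548 and 1.43, a ratio of 2.60 (q = 0.00975), in the authors' deposited table, and overlaps AT2G19180 on the opposite strand. Of 33 defence genes, 2 (6.06%) were higher and 1 (3.03%) lower, against 1.38% and 1.11% of all annotated protein-coding genes. The higher genes were FRK1 and the chitinase gene HCHIB (PR3), at a ratio of 1.60. WRKY33 was lower, at a ratio of 0.702 in the authors' deposited table. The kinase genes MAPKKK13 (AT1G07150) and MAPKKK19 (AT5G67080), of the first tier of mitogen-activated kinase cascades, had ratios of 2.40 and 2.01 in the authors' deposited table. Of 21 genes with a MAPKKK symbol, a set chosen after the values were seen, 3 (14.3%) were higher and 1, MAPKKK15, was lower. MAPKKK15 stood at 13.3 and 7.15 in the authors' deposited table. Others of this group were the small peptide gene RTFL10, the membrane-associated kinase regulator MAKR6, the calmodulin-binding protein EDA39, the kinase NEK5, the receptor-like AT1G63600, the TIR-domain gene AT2G20142 and AT2G19410, at ratios from 2.0 to 2.56 in the authors' deposited table.

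Both RING finger genes had the smallest q-value; such proteins usually tag others with ubiquitin. AT1G12760 had 11.98 and 55.2, a ratio of 4.61 (q = 0.00246), in the authors' deposited table. RHA2B, known to act in abscisic acid signalling, had 9.83 and 20.4, a ratio of 2.08 (q = 0.00246), in the authors' deposited table.

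The largest ratio of the doubled genes that were kept belonged to a metabolic gene. An entry that was set aside, AT2G24760, had a larger ratio, 10.2. Its values were 0.269 in the wild type and 2.73 in hb13 in the authors' deposited table. AT5G01210, annotated as an HXXXD-type acyltransferase, a class that joins acyl groups to secondary metabolites, had 13.7 and 73.1, a ratio of 5.34 (q = 0.00246), in the authors' deposited table. It overlaps AT5G01215 on the opposite strand. SDR2 (AT3G51680), a short-chain dehydrogenase, had 1.40 and 6.18, a ratio of 4.42 (q = 0.00246), in the authors' deposited table. UGT76D1 (AT2G26480), a glucosyltransferase, had 3.31 and 10.2, a ratio of 3.09 (q = 0.00246), in the authors' deposited table. Of 64 UDP-glycosyltransferase genes, 5 (7.81%) were listed as higher and 3 (4.69%) as lower, against 1.38% and 1.11% of all annotated protein-coding genes.

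CYP83B1 (AT4G31500), which commits indole compounds to glucosinolate synthesis, had 29.3 and 67.8, a ratio of 2.32 (q = 0.00246), in the authors' deposited table. IPMI1 (AT3G58990), an isopropylmalate isomerase, was near the threshold, at 1.66 and 3.33 (q = 0.0392) in the authors' deposited table. Of the metabolic group, 7 more are known by product name and include MSRB8 (AT4G21840), which repairs oxidised methionine, and AT1G75000, of a family of fatty acid elongases, at ratios of 2.09 and 2.76 in the authors' deposited table. The last 5, among them AT1G06980 and AT4G03600, have a product name but no role that could be given with certainty.

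The remaining 17 genes had ratios from 2.06 to 4.25 in the authors' deposited table, and most have no known function. The highest was AT1G11690, annotated as similar to BRANCHLESS TRICHOME, with 0.686 and 2.91 (q = 0.0232) in the authors' deposited table. AT5G60350, an uncharacterised gene, followed with 0.604 and 2.36 (q = 0.0255) in the authors' deposited table. AT5G67620 and AT2G41650 went from 21.2 to 56.1 and from 26.0 to 66.3 in the authors' deposited table. AT2G41650 overlaps AT2G41640 on the same strand, which was listed as lower, at 22.7 and 12.7 in the authors' deposited table. Genes with some annotation were FLOT1, a flotillin of membrane microdomains, at a ratio of 2.67 (q = 0.0422), PP2-A12, of the phloem protein family, at 2.06, and QWRF4 at 2.29 in the authors' deposited table.

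**Figure D5:**
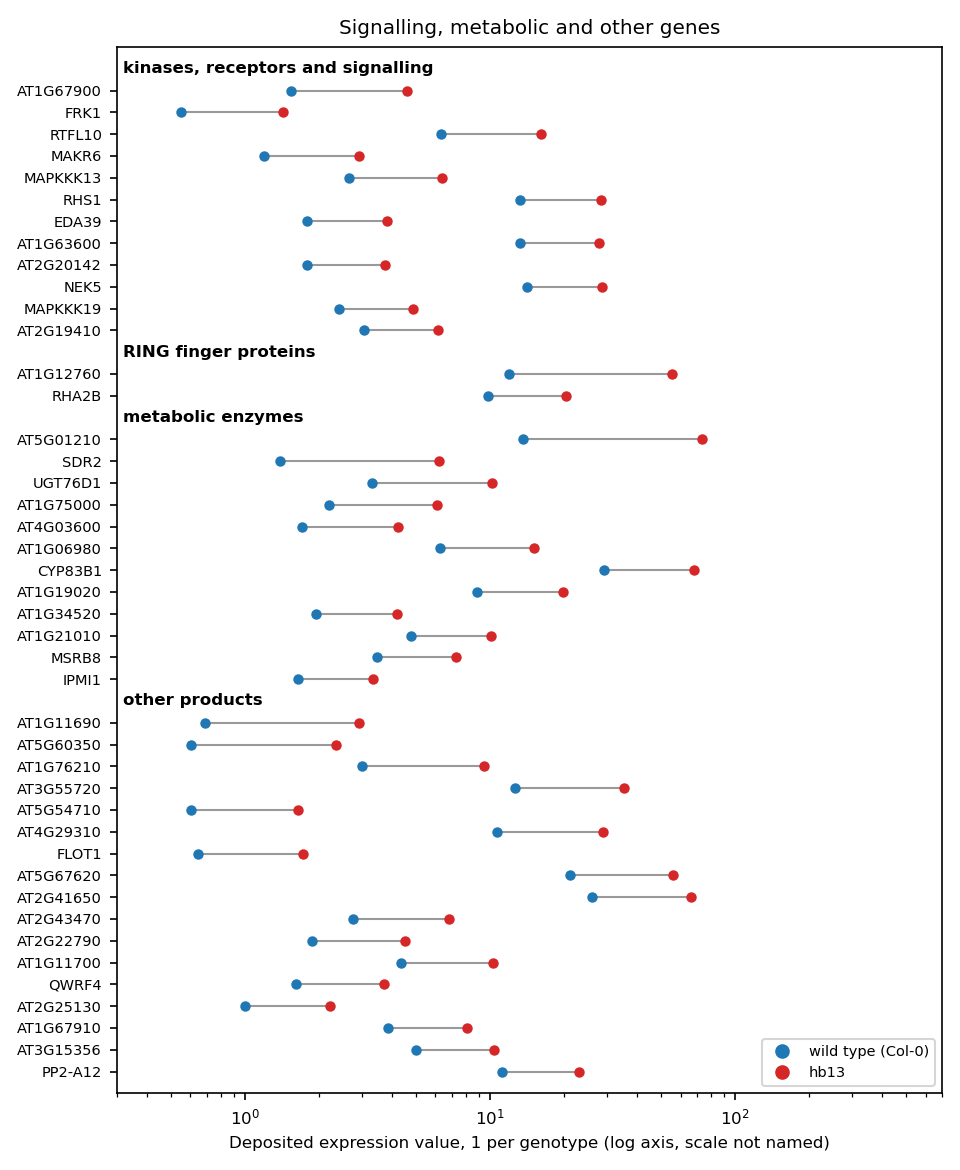
Deposited expression value (horizontal log axis) in the wild type (blue) and hb13 (red) for the doubled signalling, RING finger, metabolic and other genes, 1 value per genotype. The widest gaps are those of AT5G01210, AT1G12760, SDR2 and AT1G11690, and most other red points lie between 2 and 3 times the blue.

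Some of the 74 lay side by side in the genome. In the order of protein-coding genes, 3 pairs were direct neighbours: TIE1 with XTH26, AT1G11690 with AT1G11700, and AT1G67900 with AT1G67910. Counting any higher gene of the table as a neighbour, 13 of the 74 (17.57%) had one directly beside them, against 41 of the 304 other higher genes (13.49%), a difference that was not tested. Of the 142 other genes directly beside a doubled gene, 7 (4.93%) were listed as higher and 2 (1.41%) as lower. Among all annotated protein-coding genes these shares were 1.38% and 1.11%. The genes lay on all chromosomes, with 23 on chromosome 1, 16 on 2, 8 on 3, 9 on 4 and 18 on 5. An annotated gene overlapped 11 of the 74 (14.9%), against 19.6% of the 695 nuclear entries matched.

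The threshold of 2 fell in a continuous run of ratios. Just inside were AT2G19410, AT5G56200, IPMI1 and MAPKKK19, at ratios from 2.0001 to 2.0098 in the authors' deposited table. Just outside, among entries not set aside, were AAP3, an amino acid carrier, WRKY42, AT3G45660 and AT2G43500. Their ratios ran from 1.9689 to 1.9991 in the authors' deposited table. Loci were set aside below the threshold too, among them AT5G23980 at a ratio of 1.985.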

How the data were processed

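Poly(A) RNA libraries were directional and read as 100-base single ends, per the labels' protocols. TopHat2 2.0.13, Cufflinks 2.1.1, Cuffdiff and the build TAIR10 are named in the submitters' processing notes, with no role or order. Per the file headers, the authors deposited for each entry a normalized expression signal of each genotype on a scale that is not named, the log2 of the fold change and its q-value, none above 0.05. Depth is unknown, so no interval or floor is given.

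Members and gene lists were chosen with earlier results of these data known. A list name was matched to 1 RefSeq locus by symbol or synonym, and the HD-ZIP class I list by locus. Values in full go to the 12 largest ratios and the 10 highest hb13 values of the doubled genes that were kept. They also go to list members, neighbours, pairs over 40% identical in protein and entries beside the threshold. Symbols, positions and sequence came from RefSeq TAIR10.1, whose nuclear sequence is that of TAIR10. Proteins were translated from the longest coding sequence and aligned with BLOSUM62 and gap penalties of 11 and 1. Genes overlapping others share reads in a way not stated. The sequence of 1 promoter is not reported here. The motif search and the member rule were tested on simulated data. Python 3.11.15, pandas 2.3.3, NumPy 2.4.6, Biopython 1.88 and matplotlib 3.10.9 were used.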

Additional observations from a re-analysis of the deposited data

How the results depend on the processing

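No paired analysis was possible because each genotype has 1 value, although the labels number the replicates alike. Leaving out a replicate in turn could not be run either. The 74 genes became 30 at a ratio of 2.5, 235 at 1.5, 43 with a pseudocount of 1, 40 at a mean value of at least 5 and 22 after centring on the median log2 fold change of the listed entries, 0.45, which is the median of selected entries and not of all genes. Each of these alternatives removes or adds genes by its construction. The count was 59 at a q-value under 0.01, 67 with a pseudocount of 0.1, 73 at a mean value of at least 1, 88 with the loci set aside kept and 74 by the deposited log2 fold change. The 12 largest ratios of the 74 genes had log2 values from 1.07 to 2.34 with a pseudocount of 1. The count of promoters with an HD-ZIP site stayed at 4 with 50 bases after the start included and among genes at a q-value under 0.01, and was 0 for the form with A or T at the centre and 4 for the form with C or G, a split chosen after seeing the data. Of the 4 protein pairs over 40% identical, 1 was over 60%. The 3 neighbouring pairs were also 3 within 3 genes. Depth is unknown, and 7 of the ratios rest on a wild-type value under 1.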

Other observations

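Of 27 phenylpropanoid and flavonoid genes, 0 were listed as higher and 4 as lower, against 1.38% and 1.11% of all annotated protein-coding genes. The flavonoid hydroxylase gene TT7 had the lowest ratio, 0.465, from 28.0 to 13.02 in the authors' deposited table, and the others were 4CL3, TT5 and CHIL at 0.607 to 0.742. Of 25 circadian clock genes, 0 were higher and 3 lower. These were CCA1, GI and AT5G64170, at ratios of 0.461, 0.690 and 0.601 in the authors' deposited table. The hour of harvest of each genotype is not given in the sources used here.

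Of the other lists, the photosynthesis (26 genes) and seed (28 genes) lists had no entry. The jasmonate list of 32 had 1 higher, MYC2, and 1 lower, JAZ3. The phosphate list of 29 had 1 higher and 2 lower, the sulfur list of 18 had 0 and 2, the heat shock list of 20 had 0 and 1, the suberin and Casparian strip list of 24 had 1 and 0, and the aquaporin list of 33 had 1 and 1. Among families, 3 of 72 WRKY genes (4.17%) were higher and 7 (9.72%) lower, 3 of 126 MYB genes (2.38%) were higher and 0 lower, and 0 of 100 NAC genes were higher and 3 lower, against the 1.38% and 1.11% of all genes. Of 240 cytochrome P450 genes, 9 (3.75%) were higher and 5 (2.08%) lower. The families chosen after the values were seen also included SAUR-like (3 of 78 higher, 3.85%) and NPH3 genes (1 of 33, 3.03%). LOB-domain (1 of 35, 2.86%) and PGIP genes (1 of 2, 50%) were the others, and none of these 4 families had a lower entry.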
